A study of Homo sapiens with 10 samples.

Results

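The 10 genes described here encode RNA-binding splicing regulators best known for setting neuronal or epithelial exon patterns: ELAVL2, ELAVL4, NOVA1, NOVA2, RBFOX1, RBFOX2, PTBP1, PTBP2, ESRP1 and ESRP2. They were taken by name, whatever their values, and matched by Ensembl gene ID. All 10 were found among the 26346 genes listed in the deposited transcript tables. The cells were EndoC-βH1, an insulin-producing human beta cell line, so both groups rest on 1 line. In all, 5 libraries came from cells given an siRNA against SRp55, and 5 from cells given a control siRNA; polyA RNA was sequenced in each. The titles name the knockdown siRNA siSR#2, so 1 siRNA stands for the knockdown, and call the libraries of both groups exposed, without saying to what. SRp55 is the protein made by SRSF6, a serine- and arginine-rich factor that binds exons and promotes their inclusion. The siRNA sequences and the time of collection were not given in the sources used here. The labels number the libraries 1 to 5 in each group but do not name separate cultures, so p-values measure the spread between these libraries, which may be technical.

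The 5 gene families share a way of working and differ in where they are found. NOVA and RBFOX proteins bind short words in or beside an exon and favour its inclusion or its skipping according to position, and ELAVL proteins bind U-rich RNA, all of them best studied in neurons. PTBP1 is present in most dividing cells and represses neuronal exons, among them an exon of its own paralog PTBP2, so that skipping that exon keeps PTBP2 low outside the nervous system. ESRP1 and ESRP2 maintain epithelial exon choices and are lost when epithelial cells become mesenchymal. Beta cells are epithelial cells that also express many neuronal genes, which puts both sets of regulators in the same cell.

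Knockdown was read first. SRSF6 was at 23.8, 23.4, 25.3, 31.1 and 20.96 RPKM (reads per kilobase of transcript, scaled to library size) in SRp55 siRNA libraries 1 to 5. It was at 99.5, 99.5, 92.4, 99.7 and 100.0 RPKM in control siRNA libraries 1 to 5. Every SRp55 siRNA library lay far below every control library, and 25.3% of the control mean was left (exact two-sided permutation p = 0.00794, the smallest that 5 against 5 allows). Reads assigned to transcripts, in M (mega) reads, ranged from 94.7 to 189.8 M in SRp55 siRNA libraries and from 61.9 to 159.2 M in control libraries. All 11 beta cell markers examined averaged at least 0.5 RPKM, but they moved apart. The zinc transporter gene SLC30A8 rose to 172 ± 24.6 RPKM in SRp55 siRNA libraries, against 77.3 ± 11.4 RPKM in control libraries (adjusted p = 0.0025), and UCN3, a marker of mature beta cells, fell to 12.5 ± 1.86 RPKM, against 19.7 ± 2.61 RPKM (adjusted p = 0.022). With the replicate number as a block, IAPP, PDX1 and NKX6-1 fell too (adjusted p = 0.010, 0.028 and 0.0081, against 0.116, 0.101 and 0.198 without it). The 5 epithelial markers summed to 606 to 726 RPKM in SRp55 siRNA libraries and 618 to 745 RPKM in control libraries, and 1 of them, CDH1, rose only with the block (65.6 ± 8.01 against 51.9 ± 4.15 RPKM, adjusted p = 0.034, against 0.113 without it). Of 7 acinar and duct markers, CPA1 averaged 22.2 ± 9.51 against 20.9 ± 4.74 RPKM and KRT19 34.9 ± 14.5 against 23.7 ± 4.54 RPKM, whereas PRSS1, CELA3A and CTRB1 were at 0 in every library. Of 6 other islet markers, SST, the delta cell hormone, averaged 92.2 ± 58.4 against 109.8 ± 76.5 RPKM, and PPY was at 0 in every library. The part of these genes in the changes of the 10 regulators was not tested. In bulk RNA, fewer cells of a type and less RNA per cell cannot be told apart.

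Of the 10 regulators, 1 rose after SRp55 siRNA and 1 fell. Relative to the median tested gene, the fold change was 1.37 for ELAVL2, a neuronal Hu protein, and 0.648 for ESRP2, the less abundant of the epithelial pair. The other 8 did not pass the test (limma on log2(RPKM + 0.5), adjusted p under 0.05 over all genes). For comparison, 684 of 13630 tested genes were called, which is 5.02% of them, with 3.76% higher and 1.25% lower. The groups did not overlap for 2 of the 10 regulators, the same 2, against 7.92% of all tested genes. Each fold change is set against the median of all tested genes, which lay 0.11 above 0 on the log2 scale in the deposited RPKM, whereas the p-values test the change as deposited. On that scale the median of the 10 regulators was 0.16, and 7 of 10 lay above the median gene.

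**Figure D1:**
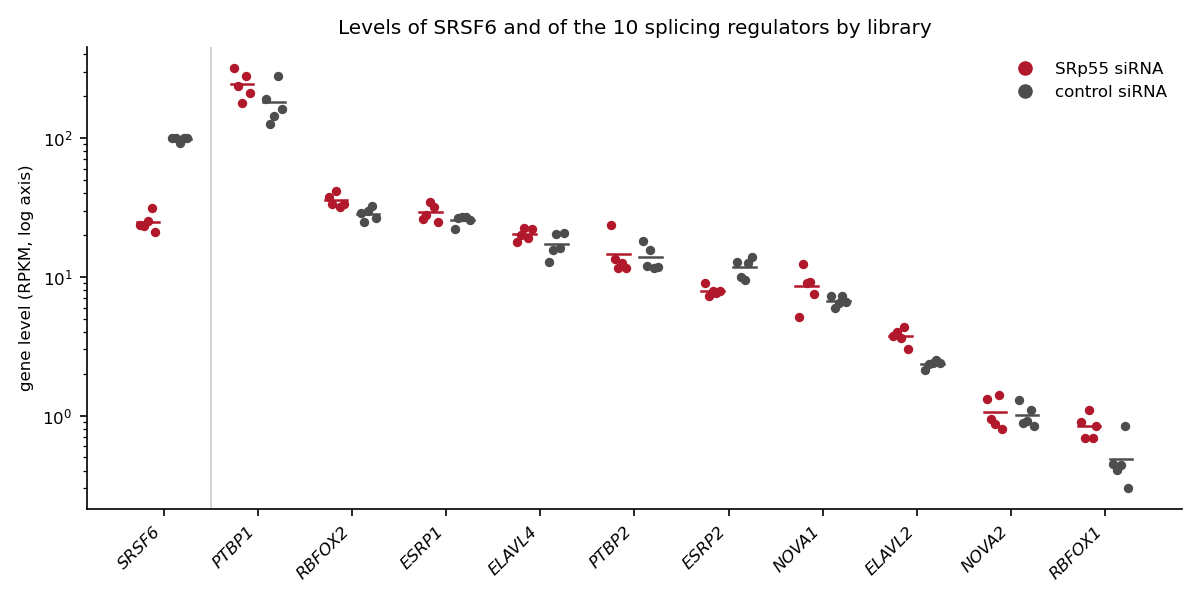
Gene level in RPKM on a log axis for SRSF6, left of the grey line, and the 10 regulators ordered by their control mean, with 1 point per library and a bar at the group mean of 5 libraries; SRp55 siRNA libraries are red and stand left of the grey control siRNA libraries. ELAVL2 at 3.02 to 4.34 RPKM lies wholly above its controls at 2.13 to 2.51 RPKM, ESRP2 at 7.27 to 8.99 RPKM lies wholly below its controls at 9.53 to 13.9 RPKM, and the 8 others overlap.

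The order of levels, which RPKM allows because it is per length, was nearly the same in both groups. PTBP1 stood alone at the top, averaging 244 ± 55.3 RPKM in SRp55 siRNA libraries and 180 ± 60.1 RPKM in control libraries (SD, n = 5 each, here and below). RBFOX2 and ESRP1 came next and overlapped each other, then ELAVL4 and PTBP2, which also overlapped. ESRP2 was sixth in control libraries, overlapping PTBP2 above it and clear of NOVA1 below it, and seventh in SRp55 siRNA libraries, where its range of 7.27 to 8.99 RPKM lay inside that of NOVA1, 5.13 to 12.4 RPKM, which itself overlapped that of PTBP2. ELAVL2 was eighth in both groups, and NOVA2 and RBFOX1 closed the list at the lowest levels, with overlapping ranges.

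ELAVL2 (chr9:23690102-23826335, minus strand, GRCh37) encodes HuB, a protein that binds U-rich RNA and acts on splicing, stability and translation in neurons. It measured 3.76, 3.98, 3.61, 4.34 and 3.02 RPKM in SRp55 siRNA libraries 1 to 5. It measured 2.13, 2.37, 2.40, 2.51 and 2.39 RPKM in control libraries 1 to 5. The lowest SRp55 siRNA library was thus above the highest control library, and each was above the control of its own number. The means were 3.74 ± 0.486 and 2.36 ± 0.137 RPKM, a relative log2 fold change of 0.45 with a standard error of 0.11 (95% interval 1.16- to 1.62-fold, adjusted p = 0.017). Estimated reads over the library total (RPM) gave the same picture at 13.9 to 16.4 RPM in SRp55 siRNA libraries and 8.84 to 11.1 in control libraries (log2 fold change 0.53, adjusted p = 0.0025).

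Its paralog ELAVL4 (chr1:50513686-50669458, plus strand) encodes HuD and was the more abundant of the pair. It measured 17.7, 20.04, 22.3, 19.0 and 21.9 RPKM in SRp55 siRNA libraries 1 to 5 and 12.8, 15.6, 20.5, 16.1 and 20.7 RPKM in control libraries 1 to 5. Each SRp55 siRNA library was above the control of its own number, but the groups overlapped (log2 fold change 0.14, 95% interval 0.889- to 1.37-fold, adjusted p = 0.338). The level of ELAVL2 was 18.8 ± 3.69% of that of ELAVL4 in SRp55 siRNA libraries and 14.1 ± 2.34% in control libraries, with overlapping ranges. A transcript with no coding sequence defined, ELAVL4-210, held 49.1% of the ELAVL4 level in SRp55 siRNA libraries and 50.7% in control libraries. Of the other Hu genes, ELAVL1, the widely expressed HuR, averaged 53.8 ± 14.4 against 44.7 ± 2.28 RPKM, with medians of 47.3 and 45.8 RPKM. Its ranges of 47.1 to 79.5 and 41.2 to 46.5 RPKM do not overlap, as for 7.92% of all tested genes. ELAVL3 averaged 21.9 ± 6.13 against 16.6 ± 4.22 RPKM. Neither ELAVL1 nor ELAVL3 passed the test (adjusted p = 0.401 and 0.318).

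Neuronal marker genes were uneven between the groups. The summed level of the 7 markers ran from 7.85 to 10.9 RPKM in SRp55 siRNA libraries and from 5.86 to 8.08 RPKM in control libraries, and 3 of 7 averaged at least 0.5 RPKM. SLC17A6, a glutamate transporter, averaged 6.76 ± 1.44 against 4.52 ± 0.901 RPKM (adjusted p = 0.114) and rose only with the replicate number as a block (adjusted p = 0.013), whereas SLC6A4, the serotonin transporter, fell to 0.586 ± 0.159 RPKM in SRp55 siRNA libraries, against 1.37 ± 0.330 RPKM in control libraries (adjusted p = 0.020). NEUROD6, SLC17A7 and TBR1 were each under 0.1 RPKM in both group means. The part of these genes' levels in the rise of ELAVL2 was not tested.

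The NOVA proteins bind YCAY words and set synaptic exons in neurons. NOVA1 (chr14:26912299-27066960, minus strand) measured 5.13, 12.4, 9.01, 9.23 and 7.46 RPKM in SRp55 siRNA libraries 1 to 5. It measured 7.29, 5.995, 6.5004, 7.29 and 6.61 RPKM in control libraries 1 to 5. All SRp55 siRNA libraries but the first lay above every control library, and the first lay below them all, so the spread was 2.67 RPKM (SD) in SRp55 siRNA libraries and 0.554 RPKM in control libraries. NOVA1 was not called (log2 fold change 0.18, 95% interval 0.851- to 1.51-fold, adjusted p = 0.406). In RPM the spread narrowed to 16.4 to 22.4 in SRp55 siRNA libraries and 16.2 to 19.5 in control libraries.

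NOVA2 (chr19:46436992-46476804, minus strand), the closely related protein of the cortex, was near 1 RPKM throughout. It averaged 1.07 ± 0.277 RPKM in SRp55 siRNA libraries and 1.00 ± 0.190 RPKM in control libraries. The difference was -0.06 on the log2 scale (95% interval 0.775- to 1.19-fold, adjusted p = 0.868), and its sign turned on summed reads, at 0.01. Most of its level came from 1 coding transcript, NOVA2-201, at 87.2% in SRp55 siRNA libraries and 86.1% in control libraries.

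RBFOX proteins bind GCATG words beside exons; RBFOX2 is widespread and RBFOX1 is found mainly in neurons, muscle and heart. RBFOX2 (chr22:36134783-36424473, minus strand) measured 37.8, 33.4, 41.7, 31.8 and 33.4 RPKM in SRp55 siRNA libraries 1 to 5, and 28.8, 24.7, 29.7, 32.1 and 26.7 RPKM in control libraries 1 to 5. SRp55 siRNA library 4 lay below the highest control library, and the change of 0.21 (95% interval 0.977- to 1.37-fold) was not called (adjusted p = 0.127). Its main transcript, RBFOX2-205 of 6932 bases, was at 22.1 to 23.4 RPKM in SRp55 siRNA libraries and at 18.1 to 20.8 RPKM in control libraries. The transcript did not pass over all transcripts tested (adjusted p = 0.494), of which 0.083% were called. It held 64.6% of the gene's RPKM in SRp55 siRNA libraries and 69.2% in control libraries.

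RBFOX1 (chr16:6069095-7763340, plus strand) was the least abundant regulator. It measured 0.904, 0.695, 1.10, 0.687 and 0.849 RPKM in SRp55 siRNA libraries 1 to 5. It measured 0.452, 0.407, 0.438, 0.844 and 0.301 RPKM in control libraries 1 to 5. Control library 4 alone overlapped the SRp55 siRNA libraries. On RPKM the change of 0.35 (95% interval 1.02- to 1.60-fold) was not called, with an adjusted p of 0.105, and without control library 4 it was called (0.42, adjusted p = 0.026). On summed reads, which were 172 to 310 per SRp55 siRNA library and 66 to 161 per control library, RBFOX1 rose (1.46 to 2.42 RPM in SRp55 siRNA libraries against 0.704 to 1.16 in control libraries, log2 fold change 0.64, adjusted p = 0.0089). That fit called 17.2% of genes, 7.3% higher and 9.87% lower. RBFOX3, the NeuN antigen of mature neurons, averaged 1.26 ± 0.379 RPKM in SRp55 siRNA libraries and 0.695 ± 0.311 RPKM in control libraries and was not called (adjusted p = 0.138).

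**Figure D2:**
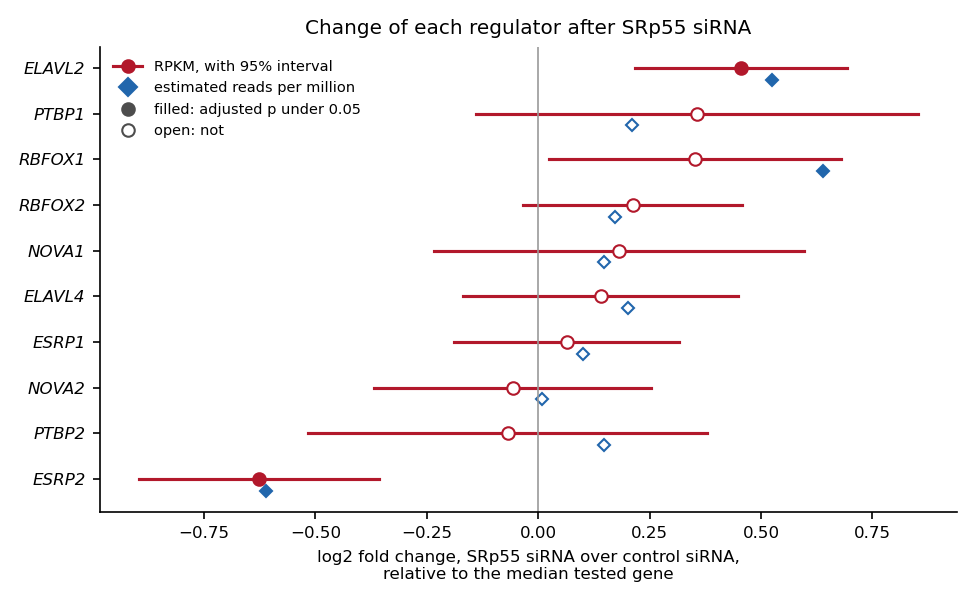
Log2 fold change of each regulator, SRp55 siRNA over control siRNA, relative to the median tested gene; circles give RPKM with the 95% interval, diamonds the summed estimated reads (RPM), and filled symbols an adjusted p under 0.05. ELAVL2 at 0.45 and ESRP2 at -0.63 are filled on both scales, and RBFOX1 at 0.64 on reads only.

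PTBP1 (chr19:797075-812327, plus strand), the polypyrimidine tract binding protein, measured 319, 235, 178, 278 and 212 RPKM in SRp55 siRNA libraries 1 to 5. It measured 192, 126, 143, 278 and 161 RPKM in control libraries 1 to 5. The groups overlapped through control libraries 1 and 4, and the change of 0.36 (95% interval 0.908- to 1.81-fold) was not called (adjusted p = 0.259). In RPM the range was 426 to 536 in SRp55 siRNA libraries and 374 to 483 in control libraries.

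PTBP2 (chr1:97187221-97280349, plus strand), the neuronal paralog that takes over when PTBP1 falls in differentiating neurons, measured 23.4, 13.4, 11.6, 12.6 and 11.6 RPKM in SRp55 siRNA libraries 1 to 5. It measured 18.0, 11.9, 15.7, 11.6 and 11.8 RPKM in control libraries 1 to 5. SRp55 siRNA library 1 stood well above the rest of its group. The change was -0.07 (95% interval 0.699- to 1.301-fold, adjusted p = 0.933) and took the other sign, at 0.15, on summed reads. PTBP2 was at 5.92 ± 1.07% of the level of PTBP1 in SRp55 siRNA libraries and 8.26 ± 2.63% in control libraries, with overlapping ranges. PTBP3, the third paralog, averaged 26.9 ± 3.89 against 30.5 ± 3.60 RPKM (adjusted p = 0.450).

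Of the regulators, PTBP2 had the smallest p in the test of transcript usage, which was 0.0126, with an adjusted p of 0.369, so it was not called; on estimated reads the adjusted p was 0.083. None of the 8 regulators with at least 2 transcripts to compare was called, against 0.343% of the 9915 genes tested. NOVA2 and RBFOX1 did not have 2 transcripts that met the limits. No single transcript of the 10 genes was called either, against 0.083% of 57818 transcripts.

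Within PTBP2, ENST00000236228.6, a transcript of 3069 bases with no entry in GENCODE 44, was at 3.27, 5.72, 5.27, 6.89 and 2.00 RPKM in SRp55 siRNA libraries 1 to 5. It was at 1.35, 3.36, 0.745, 1.60 and 1.16 RPKM in control libraries 1 to 5. It held 34.8% of the gene's RPKM in SRp55 siRNA libraries and 12.8% in control libraries; its level did not pass the test (log2 fold change 1.15, adjusted p = 0.353). PTBP2-201, of 3057 bases, was listed at 0 in 4 SRp55 siRNA libraries and at 0.983 RPKM in the fifth, and lay between 0.700 and 1.93 RPKM in control libraries (adjusted p = 0.251).

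These transcripts and PTBP2-202, of 3054 bases, differ in length by 12 and 3 bases, which leaves few reads to separate them. Added together they came to 7.58 ± 1.53 RPKM in SRp55 siRNA libraries and 5.64 ± 1.68 RPKM in control libraries, with overlapping ranges of 5.95 to 9.27 and 3.85 to 7.98 RPKM. The sum was higher in the SRp55 siRNA library of all 5 pairs of the same number, and it was not tested. The retained-intron transcript PTBP2-205, of 1129 bases, took 66.8% of the gene's RPKM in SRp55 siRNA library 1, 72.7% in control library 1 and 64.6% in control library 3, and no more than 32.9% in any other library. The 3 libraries in which it was high were the 3 with the highest PTBP2 level, a sum that includes this transcript.

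**Figure D3:**
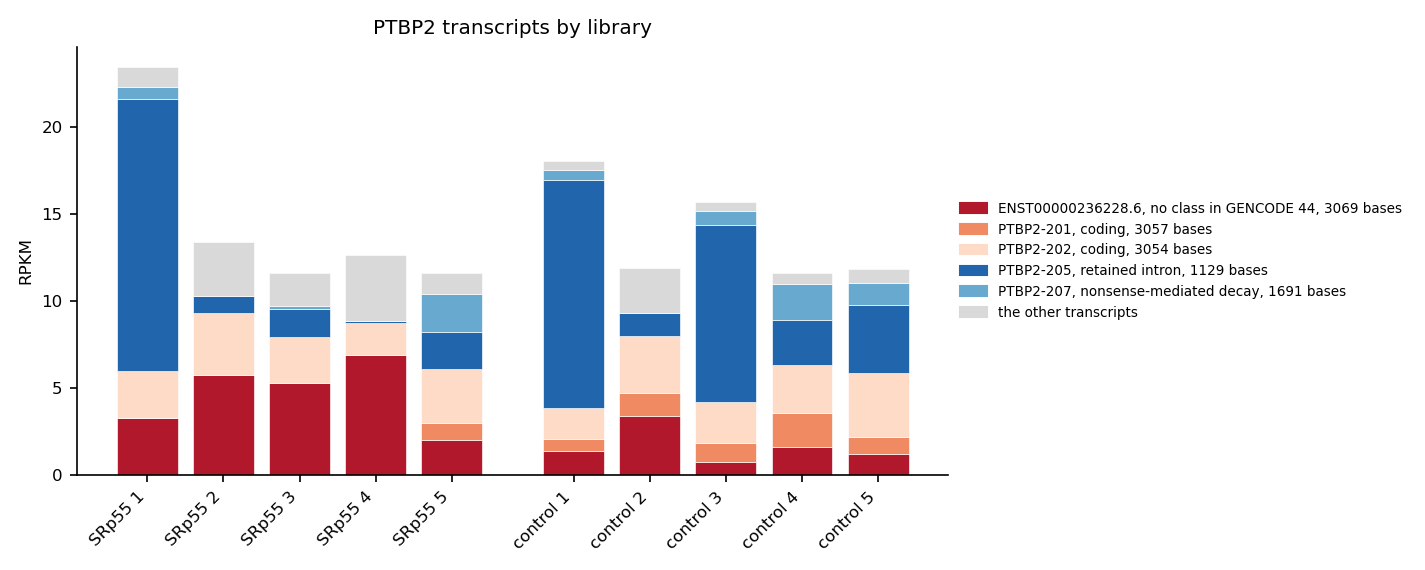
PTBP2 level in RPKM by library, split by transcript, with the 5 SRp55 siRNA libraries left of the 5 control siRNA libraries. The transcript of 3069 bases (dark red) is at 2.00 to 6.89 RPKM in SRp55 siRNA libraries and at 0.745 to 3.36 RPKM in control libraries, and the retained-intron transcript (dark blue) makes up most of the bar in SRp55 library 1 and control libraries 1 and 3.

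Both PTBP genes carry an exon of 34 bases, not a multiple of 3, whose skipping shifts the reading frame and leads to nonsense-mediated decay. PTBP1 promotes that skipping in its own transcript and in that of PTBP2, so these exons link the levels of the paralogs. The exons are shown as annotated in GENCODE 44, with capitals at the 25 of 34 positions (73.5%) at which they hold the same base:
PTBP1, chr19:807869-807902, plus strand, GRCh38: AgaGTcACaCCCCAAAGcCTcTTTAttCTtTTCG
PTBP2, chr1:96806419-96806452, plus strand, GRCh38: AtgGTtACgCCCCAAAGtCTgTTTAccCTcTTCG

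Inclusion was computed from the RPKM of transcripts that hold an exon and of those whose intron spans it. The PTBP1 exon of 34 bases was included at 61.6%, 67.8%, 75.8%, 69.5% and 74.5% in SRp55 siRNA libraries 1 to 5. It was included at 77.4%, 99.7%, 75.2%, 57.5% and 75.4% in control libraries 1 to 5. The SRp55 siRNA libraries lay within the control range, and the means of 69.8% and 77.0% differed by -7.20 percentage points (95% interval -22.6 to 8.21, adjusted p = 0.93). Its skipped form rested on 1 listed transcript, PTBP1-208, a partial one of 767 bases, which was at 0.233 RPKM in control library 2, against 19.5 to 57.3 RPKM in the other 9 libraries.

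The PTBP2 exon of 34 bases was included at 78.1%, 77.9%, 88.1%, 61.6% and 65.0% in SRp55 siRNA libraries 1 to 5. In control libraries 1 to 5 it was included at 81.1%, 100.0%, 81.4%, 69.3% and 79.7%. The groups overlapped, and the difference of -8.14 points had an interval of -23.0 to 6.75 (adjusted p = 0.93). The 76-base exon of PTBP2 was at 87.9 ± 8.53% and 94.3 ± 6.74%. Transcripts with no entry in GENCODE 44, among them the one of 3069 bases, had no exon structure and entered neither inclusion value. They held 38.7% of PTBP2 RPKM in SRp55 siRNA libraries and 14.8% in control libraries, so inclusion rests on unlike parts of the gene in each group. The effect of leaving them out was not tested.

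Another known switch of PTBP1 is an exon of 78 bases in the linker before the third RNA-binding domain, which can start 21 bases further in. It is shown with the shorter form, of 57 bases, in capitals, and neither TTCT nor TCTT occurs in it:
PTBP1, chr19:805492-805569, plus strand, GRCh38: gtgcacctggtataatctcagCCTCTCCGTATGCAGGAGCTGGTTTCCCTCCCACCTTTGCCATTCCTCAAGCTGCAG
The full exon was included at 52.8 to 62.7% in SRp55 siRNA libraries, with a mean of 57.5 ± 4.22%, and at 54.6 to 81.6% in control libraries, with a mean of 63.3 ± 11.4% (difference -5.82 points, 95% interval -17.9 to 6.24). The shorter form was at 18.8 ± 9.33% and 18.0 ± 11.04%. Each value leaves out the transcripts that hold the other form, so they are not shares of the same total. Including and skipping transcripts averaged 96.5 RPKM for the full exon and 48.1 RPKM for the shorter form. Neither form differed between the groups beyond the spread between libraries.

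In all, 15 cassette exons in 7 of the regulators could be tested, and none was called or had an unadjusted p under 0.05, against 0.024% called among 20867 exons, 1047 of which had an unadjusted p under 0.05. ELAVL4, NOVA2 and RBFOX1 had no such exon. The transcripts with a usable exon structure held between 68.2% and 100% of the gene's RPKM in those 7 genes, and 43.4% in ELAVL4 and 16.1% in RBFOX1. The groups overlapped for all 15, against 1.2% of all tested exons without overlap.

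The exons of NOVA1, ELAVL2 and RBFOX2 below are shown because each lies in the coding sequence and is a choice between forms of the protein. In the NOVA1 exon capitals mark TCAT or CCAT and the like words TCAC or CCAC, searched on the transcript's strand. It holds 5 of them without overlap, and 65.2% of the 2886 tested exons within 10 bases of its length hold at least 1:
NOVA1, chr14:26472320-26472391, minus strand, GRCh38: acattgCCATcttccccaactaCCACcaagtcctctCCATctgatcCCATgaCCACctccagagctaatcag
ELAVL2, chr9:23693448-23693486, minus strand, GRCh38: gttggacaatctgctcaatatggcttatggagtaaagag
RBFOX2, chr22:35756105-35756144, minus strand, GRCh38: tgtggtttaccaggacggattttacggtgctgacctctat
The word GCATG is not in the RBFOX2 exon, and 3.11% of the 1446 tested exons within 10 bases of its length hold it. The ELAVL2 exon, in the hinge between the second and the third RNA-binding domain of the protein, is described with the ELAVL2 transcripts.

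The NOVA1 exon of 72 bases was included at 87.2 ± 7.10% in SRp55 siRNA libraries and 87.4 ± 5.26% in control libraries (difference -0.23 points, 95% interval -9.70 to 9.24). The RBFOX2 exon of 40 bases was at 8.97 ± 4.55% and 8.63 ± 4.00% (0.34 points, -7.17 to 7.84). The hinge exon of ELAVL2 was at 88.4%, 39.3%, 91.5%, 83.2% and 91.6% in SRp55 siRNA libraries 1 to 5 and at 84.9 to 94.7% in control libraries. SRp55 siRNA library 2 alone stood apart there, and without it the difference of -10.4 points shrank to -0.52. In that library the transcript ELAVL2-201, which lacks the exon, held 53.5% of the gene's RPKM, against 5.27 to 15.5% in the other 9 libraries. The main transcript, ELAVL2-202, which includes it, held 62.5 to 82.2% in the other SRp55 siRNA libraries and 10.6% in that one. In control libraries it held 79.8 to 91.0%, apart from 1.58% in control library 5, where ELAVL2-204 held 69.2%.

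**Figure D4:**
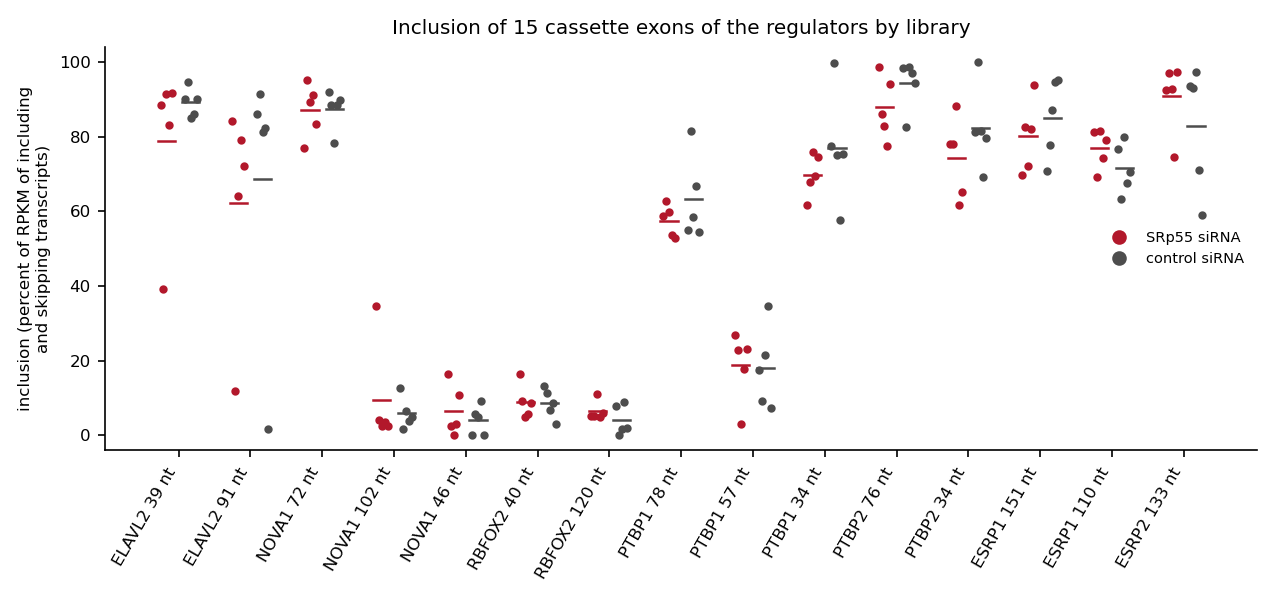
Inclusion of 15 cassette exons by library, as percent of the RPKM of including and skipping transcripts, with 1 point per library and a bar at the group mean; SRp55 siRNA libraries are red and stand left of the grey control siRNA libraries. The groups overlap for each exon, with single libraries far from the rest for the ELAVL2 exons, at 39.3% in 1 SRp55 siRNA library and at 1.67% in 1 control library.

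ESRP1 (chr8:95653302-95719694, plus strand) and ESRP2 (chr16:68263014-68272005, minus strand) bind GU-rich RNA and act on largely shared epithelial exons. ESRP2 measured 8.99, 7.27, 7.93, 7.69 and 7.94 RPKM in SRp55 siRNA libraries 1 to 5. It measured 12.7, 9.89, 9.53, 12.6 and 13.9 RPKM in control libraries 1 to 5. The highest SRp55 siRNA library was below the lowest control library. The means were 7.96 ± 0.634 and 11.7 ± 1.90 RPKM, a relative log2 fold change of -0.63 with a standard error of 0.12 (95% interval 0.537- to 0.781-fold, adjusted p = 0.038).

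The size of that fall was steadier than its call. With 1 library left out at a time, the log2 fold change of ESRP2 stayed between -0.68 and -0.53, but the adjusted p reached 0.089 and the call was kept in 3 of 10 such fits. Those without control library 1, 2 or 5, or without SRp55 siRNA library 2, 3, 4 or 5, lost it. On summed reads ESRP2 was at 22.9 to 31.7 RPM in SRp55 siRNA libraries and 35.9 to 47.3 in control libraries (log2 fold change -0.61, adjusted p = 0.0025). ESRP2 overlaps NFATC3 on the opposite strand, which averaged 27.2 ± 4.11 against 23.6 ± 2.93 RPKM and was not called (0.09, adjusted p = 0.397); whether reads were counted by strand was not given in the sources used here.

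ESRP1 measured 26.0, 28.1, 34.5, 31.8 and 24.97 RPKM in SRp55 siRNA libraries 1 to 5 and 22.1, 26.3, 27.0, 26.8 and 25.7 RPKM in control libraries 1 to 5. The groups overlapped and the change of 0.06 was not called (95% interval 0.877- to 1.25-fold, adjusted p = 0.420). ESRP2 stood at 34.6%, 25.9%, 23.0%, 24.2% and 31.8% of the level of ESRP1 in SRp55 siRNA libraries 1 to 5. In control libraries 1 to 5 it stood at 57.5%, 37.5%, 35.3%, 46.9% and 53.9%. The share was lower in each SRp55 siRNA library than in any control library, and no test was made of this ratio. The summed level of 6 mesenchymal, endothelial and immune markers was 0.791 to 6.47 RPKM in SRp55 siRNA libraries and 0.730 to 2.73 RPKM in control libraries, with 1 of the 6, COL1A1, at 0.5 RPKM or more. Its part in the level of ESRP2 was not tested.

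**Figure D5:**
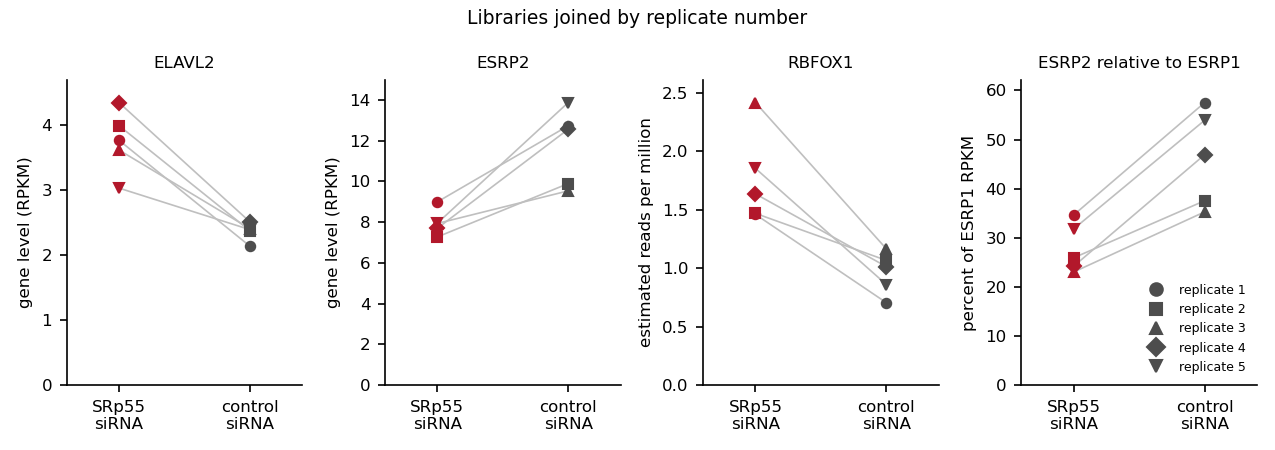
Level of ELAVL2 and ESRP2 in RPKM, of RBFOX1 in estimated reads (RPM), and of ESRP2 as a percent of ESRP1 RPKM, with SRp55 siRNA libraries left of control siRNA libraries and lines joining libraries of the same replicate number. ELAVL2 and RBFOX1 are higher and ESRP2 and its share of ESRP1 lower in the SRp55 siRNA library of all 5 pairs.

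The main coding transcript of ESRP2 was ESRP2-210, of 3386 bases, at 5.58, 4.45, 4.79, 4.19 and 3.49 RPKM in SRp55 siRNA libraries 1 to 5 and at 6.86, 7.43, 5.42, 6.77 and 6.30 RPKM in control libraries 1 to 5. The SRp55 siRNA library that was highest, the first, overlapped the lowest control library, the third. The transcript alone did not pass (log2 fold change -0.62, adjusted p = 0.389), and it held 56.4% and 57.05% of the gene's RPKM. Inclusion of its 133-base exon, which ESRP2-211, a transcript classed for nonsense-mediated decay, and the retained-intron transcript ESRP2-201 skip, was 90.8 ± 9.35% and 82.8 ± 16.8%. In ESRP1 the exons of 151 and 110 bases were at 80.1 ± 9.57% and 77.0 ± 5.29% in SRp55 siRNA libraries and at 85.1 ± 10.7% and 71.6 ± 6.75% in control libraries.

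The 3′ UTR words CAGGCTT and AGGCTTA, picked in an earlier analysis of these data because genes that hold them were lower after SRp55 siRNA, were looked up in the regulators. CAGGCTT occurs in 13.0% of the 12571 tested genes with an annotated 3′ UTR. Of the 1635 genes that hold it, 2.87% were called higher and 4.46% lower, with a median log2 fold change of -0.09, and of the 10936 without it 4.01% and 0.796%. It occurs at 2 sites in ESRP2, at 1 site each in NOVA1 and NOVA2, and in none of the other 7 regulators. AGGCTTA occurs at 1 site in ELAVL4 alone. The first site in ESRP2, with the word in capitals, starts at base 341 of the 3′ UTR of ESRP2-210 in GENCODE 44:
ESRP2 site, chromosome 16: caggtccacggCAGGCTTgctttctttta
The words were picked on these same data, so the shares called among genes that hold CAGGCTT are no separate evidence. The part of these words in the fall of ESRP2 was not tested.

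Of the genes that act with or upstream of these regulators, none was called on RPKM, against 5.02% of all tested genes. So few genes were tested that a count of 0 does not set them apart from that share. The genes were the 4 paralogs ELAVL1, ELAVL3, RBFOX3 and PTBP3, 3 tested of 7 other neural or epithelial splicing regulators, 4 tested of 9 transcription factors and 9 protein partners. RBM47, an epithelial splicing regulator, averaged 30.3 ± 3.43 RPKM in SRp55 siRNA libraries and 28.2 ± 3.84 RPKM in control libraries. SRRM4, which drives neuronal microexons, was at 0.0167 and 0.0293 RPKM, and its paralog SRRM3 at 6.11 ± 1.92 and 5.95 ± 1.299 RPKM. REST, the repressor of neuronal genes, averaged 1.80 ± 0.546 against 1.14 ± 0.349 RPKM (adjusted p = 0.147). The mesenchymal factor ZEB2 averaged 0.932 ± 0.116 against 0.481 ± 0.266 RPKM (adjusted p = 0.099). Its ranges of 0.814 to 1.11 and 0.0973 to 0.765 RPKM do not overlap, as for 7.92% of all tested genes. HNRNPM, a partner of RBFOX, averaged 189 ± 22.2 against 148 ± 27.8 RPKM and passed only with the replicate number as a block (adjusted p = 0.177 without it and 0.048 with it).

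The genes with a known target exon of one of the families were also measured. Of 39 such genes outside the 10 regulators, 37 could be tested for level and 1 was called, against 5.02% of all tested genes: ANK3, the ankyrin G gene and a known ELAVL target, rose to 6.51 ± 2.19 RPKM in SRp55 siRNA libraries, against 2.70 ± 1.03 RPKM in control libraries (log2 fold change 1.02, adjusted p = 0.040). The median log2 fold change of the 37 was 0.01. With the replicate number as a block, 5 of the 37 rose, among them CD44, ENAH, KCNJ6 and ANK3, where that fit called 13.1% of all genes. On summed reads 2 of the 37 rose and 3 fell, where that fit called 7.3% of all genes higher and 9.87% lower.

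By family, the median log2 fold change of the tested target genes was 0.01 for 10 ESRP targets, -0.0027 for 10 PTBP targets, 0.01 for 9 RBFOX targets, -0.11 for 10 NOVA targets and 0.31 for 4 ELAVL targets, of which 1 was called. These lists overlap and hold some of the regulators themselves. Transcript usage was called in none of the 33 target genes tested, against 0.343% of all genes tested for it. Inclusion was called in none of 128 of their cassette exons, against 0.024% of all tested exons. Of the 128, 1 had an unadjusted p under 0.05, against 1047 of 20867 exons. With shares called that low, counts of 0 do not show that the target exons were unchanged.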

How the data were processed

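PolyA RNA from 10 EndoC-βH1 samples was sequenced on a HiSeq 2000, per the labels, 5 libraries per group. TopHat and GRCh37/hg19 are named in the submitters' processing notes; the sources used here name neither the quantifier nor its strand setting. The deposited tables list, per transcript, an estimated (expected) read count, often fractional, and an RPKM value made by the authors. RPKM was summed per gene over 155130 transcripts of 26346 genes; 95.0% of genes matched a symbol.

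Levels were tested with limma 3.58.1 in R 4.3.3 (trend and robust options) on log2(RPKM + 0.5) for genes or transcripts averaging at least 0.5 RPKM, with Benjamini-Hochberg adjustment over all of them and 0.05 as threshold. The fold change is on that scale, which understates changes of low genes. Summed estimated reads are given in RPM, scaled to the assigned reads of each library. Transcript usage (percent of the gene's RPKM) was tested with limma's diffSplice F-test over transcripts with at least 5% usage. Exon inclusion was tested with limma on percent, for exons between 5% and 95%. Both also needed a shift of at least 10 percentage points. Exon structures and sequences came from GENCODE 44 (GRCh38) by transcript ID, kept where intron lengths matched (84.5% of transcripts). The procedures were tested on simulated data.

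Same-numbered libraries correlated at 0.13 to 0.41 in their deviations from the group means, and different-numbered ones at no more than 0.12, so the numbers pair the libraries. The main fits leave out the block because the labels do not state this pairing, and blocked results are given where they change a call. In the limma fit with the block, the adjusted p was 0.016 for ELAVL2 and 0.023 for ESRP2. Alternatives were other pseudocounts, filters, scaling, summed reads, the replicate block and leaving out each library. SRSF6 and the 10 regulators are named whatever their p; of the other lists, those called plus those needed to describe a family. The regulators and lists were chosen with earlier results of these data known. Depth per library is given with the results; the spread between libraries sets the precision. RefSeq promoters and proteins are not used here.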

Additional observations from a re-analysis of the deposited data

Results flagged for a closer look

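In 15 of 66 groups of 5 libraries, 1 library lay so far from the nearest other that the gap exceeded 0.71 of the group's range. For independent, normally distributed values chance flags about 1 in 20 groups. The groups here include percentages and values that share transcripts, so that rate cannot be set against the count. Among gene levels, RBFOX1 was highest in control library 4, at 0.844 RPKM against 0.301 to 0.452 in the other controls. PTBP2 was highest in SRp55 siRNA library 1, at 23.4 RPKM against 11.6 to 13.4. ESRP1 was lowest in control library 1, at 22.1 RPKM against 25.7 to 27.0, and SRSF6 in control library 3, at 92.4 RPKM against 99.5 to 100.0.

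Among transcripts, PTBP2-205 was highest in SRp55 siRNA library 1, at 15.6 RPKM against 0.0998 to 2.18. PTBP2-201 was at 0.983 RPKM in SRp55 siRNA library 5 and listed at 0 in the other 4. ELAVL2-202 was lowest in control library 5, at 0.0378 RPKM against 1.81 to 2.16.

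Among exons, SRp55 siRNA library 2 was lowest for the ELAVL2 exons of 39 bases, at 39.3% against 83.2 to 91.6%, and of 91 bases, at 11.8% against 64.2 to 84.1%. The 91-base exon was also lowest in control library 5, at 1.67% against 81.2 to 91.5%. The NOVA1 exon of 102 bases was highest in SRp55 siRNA library 1, at 34.5% against 2.38 to 4.12%, and that of 72 bases lowest in control library 3, at 78.3% against 88.5 to 91.8%. The RBFOX2 exon of 120 bases was highest in SRp55 siRNA library 3, at 11.2% against 4.96 to 5.90%. The PTBP2 exon of 76 bases was lowest in control library 2, at 82.6% against 94.3 to 98.7%, and the ESRP2 exon of 133 bases in SRp55 siRNA library 4, at 74.5% against 92.5 to 97.2%. The cause of these gaps was not tested.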

How the results depend on the processing

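ELAVL2 was called under every alternative (log2 fold change 0.40 to 0.49 and adjusted p 0.010 to 0.048 with 1 library left out). ESRP2 was called under each alternative other than leaving out a library, where 7 of 10 fits lost the call and all 10 lay at -0.68 to -0.53. Regulators called higher numbered 1, 2 on summed reads (RBFOX1 added, 0.64) and 1 to 2 without a library; those lower numbered 0 to 1 without a library. Over all genes, 684 were called, 2340 on summed reads, 1784 with the replicate block and 259 to 1083 without a library; the replicate block changed no call among the 10 regulators. Median-of-ratios scaling called 919, 412 higher and 507 lower, against 513 and 171 as deposited. SRSF6 stayed at -2.15 to -2.03 without a library and was at -1.997 on summed reads. Transcripts called numbered 48, 2 with the replicate block and 12 to 47 without a library; usage 34, and 24 to 52 without a library; exons 5, 1 on the logit scale, 0 with the block and 2 to 10 without a library. No transcript, usage or exon of the regulators was called in any of these. Values that were not called and turned sign were NOVA2 (0.018 without a filter, 0.0092 on reads), PTBP2 (0.0060 and 0.15) and, without a library, PTBP2 (-0.21 to 0.0051), ESRP1 (-0.011 to 0.14), PTBP2-202 (-0.27 to 0.00050), ELAVL2-202 (-0.094 to 0.67) and, in percentage points, the ELAVL2 91-base (-23.0 to 6.34), NOVA1 72-base (-2.50 to 2.29), RBFOX2 40-base (-1.52 to 1.49) and PTBP1 57-base (-1.93 to 4.93) exons. The cause was not tested. Depth limits RBFOX1, with 66 to 310 reads a library, and partial or near-identical transcripts limit exon and usage values.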
